A study of Mus musculus with 17 samples.

Results

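The genes described here are Itga2b, Vwf, Clec1b, Pf4, Ppbp, Gp9, Gp5, Treml1 and Nfe2, which are used to recognise megakaryocytes and platelets. They were chosen by name, as 9 of the 19937 genes that the arrays measured with a probe set of a single gene symbol, and each of the 9 had 1 such probe set. Megakaryocytes are the large haematopoietic cells that shed platelets, and in the embryo their precursors appear early, alongside red cells and macrophages. A platelet carries adhesion receptors on its surface (the integrin Itga2b, the glycoproteins Gp9 and Gp5 and the lectin receptor Clec1b). Its granules store chemokines and clotting proteins (Pf4, Ppbp and Vwf), and Treml1 lies in the granule membrane until the platelet is activated. Nfe2 is the transcription factor that directs the last steps of platelet formation. Several of these genes are not confined to that lineage: Vwf is made and stored by endothelial cells, Clec1b is also found outside platelets, and Itga2b (CD41) marks the first haematopoietic cells that leave the endothelium.

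The cells were mouse endothelial and emerging haematopoietic cells of the aorta-gonad-mesonephros (AGM) region, pooled from embryos at E11.5 and sorted as CD31+CD45-Ter119-. Fresh cells were separated by the receptor Kit into Kit- (3 arrays) and Kit+ (3 arrays). Other sorted cells spent 2 h in cytokine medium on OP9 stromal cells that overexpressed a Notch ligand, either Jag1 or Dll4, and were then sorted again by Kit. This gave Kit-J (2 arrays) and Kit+J (3 arrays) from OP9-Jag1, and Kit-D (3 arrays) and Kit+D (3 arrays) from OP9-Dll4, so that the question put to these genes was how their signal differed by Kit and by Notch ligand. The medium contained SCF, IL6, IL3, VEGF, IGF-1, basic FGF, erythropoietin, heparin, monothioglycerol and pituitary extract. The labels name no strain or genetic change, and replicates were separate sorts of pooled embryos, so p-values measure the spread between sorts. A further Kit-J sample was left out by the study for technical reasons. The 6 fresh arrays came from an earlier data set, so in any comparison of cultured with fresh cells the 2 h of culture cannot be told apart from the set of arrays. In 1 line of the labels, the Kit population named for both Kit-J arrays and for the replicate 3 arrays of Kit-D and of Kit+D was the opposite of that in their titles and sources. The titles and sources were used. Kit itself was lower in each of those 3 Kit- arrays (8.02 to 9.08) than in the median Kit+ array of its culture on Jag1 (9.30) or Dll4 (8.98), and it read 8.99 on Kit+D replicate 3. The ranges were not apart, since Kit on Kit-J replicate 1 (9.08) exceeded that on Kit+J replicate 2 (9.02) and on all Kit+D arrays.

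Promoters were read from RefSeq for 7 of the 9 genes, and Vwf and Nfe2 were not matched. The promoters of 3 are printed, these being Clec1b and Ppbp, which carried calls below, and Pf4, the neighbour of Ppbp. Each is the 250 bases before the gene's start, 5′ to 3′ on the plus strand of GRCm38.p6, at chr6:129397047-129397296 for Clec1b, chr5:90768268-90768517 for Ppbp and chr5:90772185-90772434 for Pf4. Capitals mark every match, on either strand, to a GATA motif (AGATAA or TGATAA), an ETS motif (AGGAAG or CGGAAG), a RUNX motif (TGTGGT or TGCGGT) or the NF-E2/AP-1 motif (TGAGTCA).
Clec1b: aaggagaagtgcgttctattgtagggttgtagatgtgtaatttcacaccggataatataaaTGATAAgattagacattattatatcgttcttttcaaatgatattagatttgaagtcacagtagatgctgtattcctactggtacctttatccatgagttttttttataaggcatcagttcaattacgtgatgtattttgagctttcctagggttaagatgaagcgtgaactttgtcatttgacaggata
Ppbp: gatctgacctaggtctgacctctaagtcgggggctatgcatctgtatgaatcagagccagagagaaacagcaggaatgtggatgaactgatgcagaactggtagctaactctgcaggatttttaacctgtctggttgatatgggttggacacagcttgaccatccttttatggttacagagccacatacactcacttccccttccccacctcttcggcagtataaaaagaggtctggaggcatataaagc
Pf4: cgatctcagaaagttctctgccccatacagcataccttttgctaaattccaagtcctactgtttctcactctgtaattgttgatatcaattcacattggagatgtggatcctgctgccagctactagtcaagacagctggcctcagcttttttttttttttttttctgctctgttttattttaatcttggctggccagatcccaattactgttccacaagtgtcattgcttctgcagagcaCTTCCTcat

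Clec1b held a GATA match whose first base was at -189 from its start, Pf4 an ETS match at -9, and Ppbp none of the 4 motifs. Of the 7 promoters, 2 (Clec1b and Gp5) had a GATA match, against 16.6% of 32851 promoters in the same table. An ETS match was found in 4 of 7 (Itga2b, Pf4, Gp9 and Gp5), against 39.2% of the table. Only Gp9 had a RUNX match, against 18.6%, and 0 of 7 had the NF-E2/AP-1 motif, against 4.46%. The start of Ppbp lay 3917 bases before that of Pf4, and both genes run in the same direction on chromosome 5 (90768518 to 90770063 and 90772435 to 90773383). These matches describe letters in the printed window and no more.

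The 9 genes differed in the size of their changes and in whether these passed the test. Vwf, Clec1b and Ppbp were lower in Kit+ cells than in Kit- cells, and both Kit-J and Kit+D cells had less of them than Kit-D cells. Itga2b, Gp9, Gp5, Treml1, Nfe2 and Pf4 passed the test in no comparison. All values below are log2 signals after RMA, the authors' background correction, normalisation and summary of probes. A gene is called when its p from limma, adjusted by Benjamini-Hochberg over all 19937 genes in a fit of all 17 arrays, lies under 0.05. The files carry no detection call. The median gene on an array read 5.43 to 5.61, and a signal under it may be near the array's background, which limits how far a fall can be measured. In sorted populations, fewer cells of a type and less RNA per cell cannot be told apart.

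**Figure D1:**
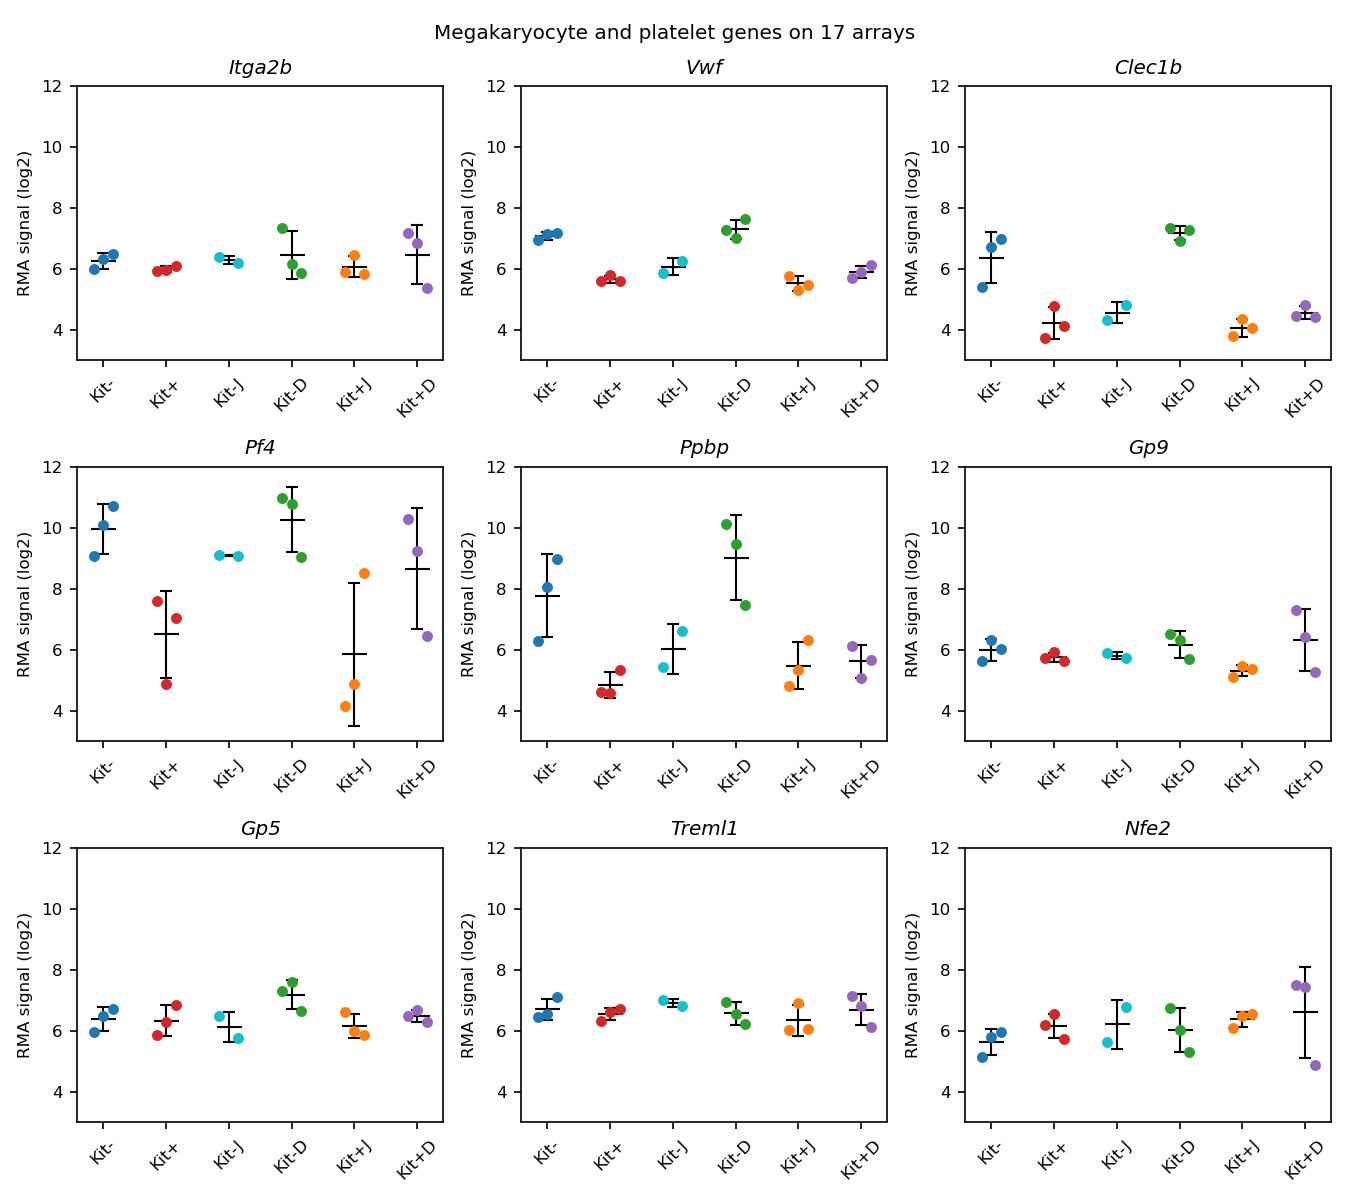
RMA signal (log2, vertical axis) of the 9 genes by group on 17 arrays, 1 point per array, with horizontal lines at the mean and bars of 1 SD. Vwf and Clec1b stand high only in the 3 Kit- and 3 Kit-D arrays, and Pf4 spreads from 4.15 to 10.97.

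Vwf, the large adhesive protein that tethers platelets to the vessel wall, read 6.94, 7.15 and 7.16 in Kit- cells and 7.26, 7.00 and 7.62 in Kit-D cells. It read 5.61, 5.79 and 5.58 in Kit+ cells, 5.88 and 6.27 in Kit-J cells, 5.78, 5.31 and 5.47 in Kit+J cells and 5.71, 5.89 and 6.11 in Kit+D cells. The 6 arrays of Kit- and Kit-D lay above all 11 others. Kit+ cells were 2.68-fold lower than Kit- cells (log2 difference -1.42, SE 0.182, limma adjusted p = 0.000228). On OP9-Dll4 the corresponding difference, Kit+D versus Kit-D, was -1.39 (SE 0.182, adjusted p = 0.000214). Kit-J cells were 2.01-fold lower than fresh Kit- cells (-1.01, SE 0.203, adjusted p = 0.0154) and 2.34-fold lower than Kit-D cells (-1.22, SE 0.203, adjusted p = 0.00192). In the order of means, Kit-D and Kit- came first and differed by 0.21 (95% interval -0.17 to 0.60). Kit-J and Kit+D followed with overlapping ranges, and then Kit+ and Kit+J, which differed by -0.14 (95% interval -0.53 to 0.24).

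Clec1b (CLEC-2), the platelet receptor for podoplanin, kept the same order of groups with a larger range. Its 3 Kit- arrays read 5.42, 6.71 and 6.97 and its 3 Kit-D arrays 7.35, 6.93 and 7.29. Kit+ cells read 3.72, 4.77 and 4.13, Kit-J cells 4.31 and 4.82, Kit+J cells 3.78, 4.35 and 4.05 and Kit+D cells 4.46, 4.82 and 4.42. Again no array outside Kit- and Kit-D reached the lowest of theirs, and Kit- replicate 1 was the nearest to the others. Those 11 arrays were all below the array's median gene, so the differences may be understated. The difference between Kit+ and Kit- was -2.16 (4.46-fold lower, SE 0.346, adjusted p = 0.00159). Between Kit+D and Kit-D it was -2.62 (6.16-fold lower, SE 0.346, adjusted p = 0.000233). Kit-J cells were lower than Kit- cells by a log2 difference of -1.80 (SE 0.387, adjusted p = 0.0239) and than Kit-D cells by -2.62 (SE 0.387, adjusted p = 0.000814). Kit-D exceeded Kit- by 0.82 (95% interval 0.08 to 1.56), which did not pass (adjusted p = 0.381).

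The calls of Vwf and Clec1b in Kit-J versus Kit- rested on few arrays. Without Kit- replicate 2, Kit- replicate 3 or Kit-J replicate 1 the adjusted p became 0.0571, 0.065 and 0.229 for Vwf and 0.0944, 0.0994 and 0.27 for Clec1b. With only the Kit-J and Kit- arrays in the fit it was 0.057 for Vwf and 0.145 for Clec1b. Signs were the same in each case. Their calls in Kit+ versus Kit-, Kit-J versus Kit-D and Kit+D versus Kit-D held without any single array, the 2 replicate 3 arrays of OP9-Dll4 included, whereas the 2 Kit-J arrays, both with the conflicting label, could not be left out together.

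Ppbp, the precursor of the platelet chemokine NAP-2, had the largest called differences of the 9 genes. It read 6.30, 8.06 and 8.98 in Kit- cells and 10.13, 9.48 and 7.46 in Kit-D cells. Kit+ cells read 4.61, 4.60 and 5.32, Kit-J cells 5.45 and 6.62, Kit+J cells 4.80, 5.34 and 6.31 and Kit+D cells 6.14, 5.06 and 5.65. The lowest Kit- array, replicate 1, overlapped with the higher arrays of Kit-J and Kit+J, while no group but Kit- reached the lowest Kit-D array. All 3 Kit+ arrays, Kit-J replicate 1, Kit+J replicates 1 and 2 and Kit+D replicate 2 lay below the array's median gene. The differences may thus be understated here too. Kit+ cells were 7.66-fold lower than Kit- cells (-2.94, SE 0.693, adjusted p = 0.0296) and Kit+D cells 10.6-fold lower than Kit-D cells (-3.41, SE 0.693, adjusted p = 0.00525). Kit-J cells were 7.96-fold lower than Kit-D cells (-2.99, SE 0.775, adjusted p = 0.0273), and against fresh Kit- cells the difference of -1.75 did not pass (SE 0.775, adjusted p = 0.338). The first of these calls was lost without Kit- replicate 2 or 3 or without any 1 of the Kit+ arrays (adjusted p = 0.0592 to 0.145). The call in Kit-J versus Kit-D was lost without Kit-J replicate 1 (0.276) or Kit-D replicate 1 or 2 (0.0824 each), and the call between Kit+D and Kit-D held without each array.

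Pf4 (platelet factor 4), the abundant alpha-granule chemokine encoded next to Ppbp, had the widest spread of the 9 genes within Kit+, Kit+J and Kit+D cells, while Ppbp had it within Kit-, Kit-J and Kit-D cells. It read 9.08, 10.10 and 10.71 in Kit- cells, 10.97, 10.78 and 9.04 in Kit-D cells and 9.11 and 9.07 in Kit-J cells. Kit+ cells read 7.59, 4.89 and 7.05, Kit+J cells 4.15, 4.87 and 8.52 and Kit+D cells 10.28, 9.25 and 6.45. All 3 Kit+ arrays lay below all 3 Kit- arrays, whereas both Kit-J arrays stayed within or near the range of Kit- and Kit-D. The difference between Kit+ and Kit- was -3.46 with a 95% interval from -5.81 to -1.11 (SE 1.10, unadjusted p = 0.00689), and it was not called (adjusted p = 0.126). It passed with only the Kit+ and Kit- arrays in the fit (adjusted p = 0.0308), with array weights (0.021), with housekeeping scaling (0.0468) and without Kit+J replicate 3 (0.0494). For Kit-J the difference was -0.88 against Kit- (95% interval -3.51 to 1.75) and -1.18 against Kit-D (95% interval -3.81 to 1.45), so that a change of several fold in either direction lay inside both intervals. Kit+J cells lay below both Kit-J arrays by -3.24 (SE 1.23, adjusted p = 0.346) and differed from Kit+D cells by -2.81 (SE 1.10, adjusted p = 0.185).

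The surface glycoproteins Itga2b, Gp9 and Gp5 were called in no comparison. Itga2b, the alpha chain of the fibrinogen receptor, read 5.98, 6.31 and 6.48 in Kit- cells, 5.93, 5.95 and 6.10 in Kit+ cells, 6.38 and 6.20 in Kit-J cells and 5.90, 6.46 and 5.83 in Kit+J cells. On OP9-Dll4 it read 7.34, 6.16 and 5.87 in Kit-D cells and 7.19, 6.84 and 5.36 in Kit+D cells, and these 6 arrays held both its highest and its lowest signal. The difference was 0.03 between Kit-J and Kit- (95% interval -0.95 to 1.01), -0.26 between Kit+ and Kit- (-1.14 to 0.61) and 0.01 between Kit+D and Kit-D (-0.87 to 0.88). None passed, and each interval reached about 1 log2 unit to at least 1 side.

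Gp9, the smallest subunit of the receptor for von Willebrand factor, read 5.62, 6.32 and 6.02 in Kit- cells, 5.72, 5.92 and 5.62 in Kit+ cells, 5.89 and 5.73 in Kit-J cells and 6.51, 6.32 and 5.68 in Kit-D cells. Its Kit+J arrays read 5.10, 5.48 and 5.37, below all Kit+ arrays, and its Kit+D arrays 7.30, 6.43 and 5.26. Kit+J differed from Kit+ by -0.44 (95% interval -1.23 to 0.36) and from Kit+D by -1.01 (SE 0.373, adjusted p = 0.162). Without Kit+D replicate 3 the latter passed (adjusted p = 0.00852), as did Pf4 (0.0463).

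Gp5, another subunit of that receptor and a thrombin substrate, was highest in Kit-D cells at 7.30, 7.59 and 6.66. Its other values were 5.96, 6.47 and 6.71 in Kit-, 5.85, 6.29 and 6.85 in Kit+, 6.47 and 5.77 in Kit-J, 6.60, 6.01 and 5.85 in Kit+J and 6.47, 6.67 and 6.30 in Kit+D. Both Kit-J arrays lay under all Kit-D arrays (-1.06, SE 0.344, adjusted p = 0.0649), and Kit-, Kit+ and Kit+D overlapped with Kit-D. Treml1 (TLT-1) had the narrowest range of the 9, from 6.04 on Kit+J replicate 1 to 7.13 on Kit+D replicate 1, with group means between 6.34 and 6.92. Its differences ran from -0.58 in Kit+J versus Kit-J (adjusted p = 0.557) to 0.35 in Kit-J versus Kit-D (adjusted p = 0.502).

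Nfe2 ran the other way in its means, which were lowest in Kit- cells. It read 5.15, 5.81 and 5.96 in Kit-, 6.18, 6.55 and 5.74 in Kit+, 5.65 and 6.77 in Kit-J, 6.75, 6.04 and 5.30 in Kit-D, 6.09, 6.49 and 6.55 in Kit+J and 7.51, 7.43 and 4.88 in Kit+D. Groups overlapped in every comparison, and the 3 Kit+D arrays spanned the whole range of the gene. The difference was 0.52 between Kit+ and Kit- (95% interval -0.70 to 1.74) and 0.57 between Kit+D and Kit-D (-0.65 to 1.79), neither called. Without Kit+D replicate 3 the latter became 1.44 and passed (adjusted p = 0.0327).

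**Figure D2:**
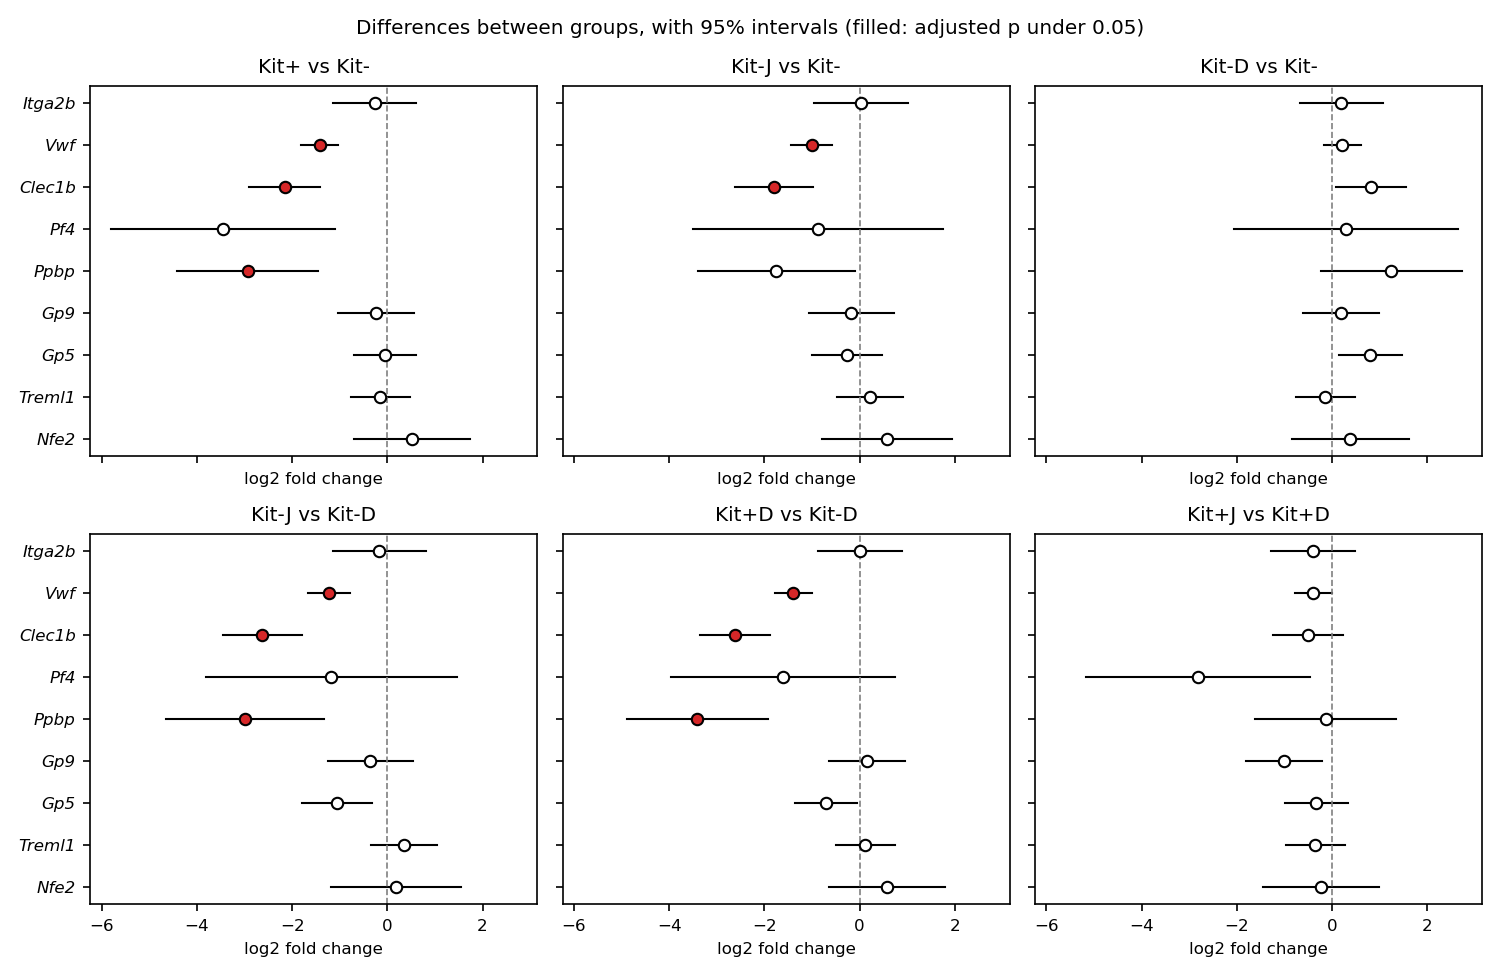
Difference between groups (log2, horizontal axis) of each gene in 6 comparisons, with 95% intervals, where filled points have an adjusted p under 0.05. The filled points are Vwf, Clec1b and Ppbp, at -1.01 to -3.41, and the interval of Pf4 is the widest throughout.

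Counted by comparison, 3 of 9 genes were called in Kit+ versus Kit-, all lower, where 3.23% of all genes were called and 2.67% called lower. In the same comparison the groups did not overlap for 4 of 9 genes (Vwf, Clec1b, Ppbp and Pf4), all lower. Of all genes, 26.5% did not overlap and 10.5% did so as lower. Kit-J versus Kit- called 2 of 9, both lower, beside 2.14% of all genes and 1.89% lower. The groups did not overlap for the same 2, beside 32.5% of all genes and 12.8% lower. A comparison of Kit-J with Kit-D called 3 of 9 as lower, beside 9.37% of all genes and 6.07% lower. There 4 of 9 did not overlap, all lower, beside 47.8% of all genes and 18.9% lower. Kit+D versus Kit-D called 3 of 9 as lower, beside 13.1% of all genes and 6.62% lower. The same 3 did not overlap, beside 32% of all genes and 14.3% lower. The median difference of the 9 genes in these 4 comparisons was -0.26, -0.26, -1.06 and -0.71, where that of all genes was 0.06, 0.09, 0.11 and 0.05. These comparisons share the arrays of Kit-, Kit-J or Kit-D with one another, and are not separate tests.

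In the remaining comparisons limma called 0 of the 9. Kit-D versus Kit- had 2 of 9 (Clec1b and Gp5) at an unadjusted p under 0.05, beside 0.171% of all genes called and 11.2% at that level. Kit+J versus Kit+ and Kit+D versus Kit+ had 0 of 9 at that level (6.67% and 17% of all genes), beside 0.0201% and 1.42% of all genes called. Only Gp9 had groups that did not overlap in the former, as lower, beside 11.7% of all genes and 6.06% lower. Kit+J versus Kit+D had 2 of 9 (Pf4 and Gp9) beside 19.1% of all genes, with 2.25% called. The groups did not overlap for Clec1b, as lower, beside 17.1% of all genes and 8.32% lower. Kit+J versus Kit-J had 2 of 9 (Vwf and Pf4) beside 10.7%, with 0.0903% called. The groups did not overlap for Vwf, Pf4 and Gp9, all lower, beside 20% of all genes and 9.97% lower. Differences in Kit+D versus Kit+ were all above 0, from 0.13 for Treml1 to 2.15 for Pf4, and none passed. Those in Kit+J versus Kit+D were all below 0, from -0.135 for Ppbp to -2.81 for Pf4, and none passed. Differences below 0 numbered 8 of 9 in Kit+ versus Kit-, 1 of 9 in Kit-D versus Kit- and 5 to 7 of 9 in each other comparison of 2 groups.

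Whether the ligands differed more in Kit- than in Kit+ cells was tested as the difference between Kit-J versus Kit-D and Kit+J versus Kit+D. It called 0 of the 9 genes (3 at an unadjusted p under 0.05, beside 16.5%), where 1.98% of all genes were called. Clec1b was closest, at -2.12 (SE 0.519, adjusted p = 0.0507): its ligand difference was -2.62 in Kit- and -0.50 in Kit+ cells. Clec1b passed under 5 of the alternative settings (adjusted p = 0.0418 to 0.0497) and without Kit- replicate 1 (0.0195), Kit- replicate 3 (0.0471) or Kit-J replicate 2 (0.0454). Ppbp followed at -2.86 (SE 1.04, adjusted p = 0.183) and Vwf at -0.84 (SE 0.273, adjusted p = 0.137). In Kit+D cells Clec1b already read below the median gene of the array.

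Arrays of Kit-D and Kit+D with the same replicate number moved together. All of the 9 genes except Vwf were higher on replicate 1 than on replicate 3 in both populations, by under 0.1 for Clec1b. In Kit-D and Kit+D cells in turn, Ppbp read 10.13 and 6.14 on replicate 1, 9.48 and 5.06 on replicate 2 and 7.46 and 5.65 on replicate 3. Pf4 read 10.97 and 10.28 on replicate 1, 10.78 and 9.25 on replicate 2 and 9.04 and 6.45 on replicate 3. Gp5 was highest on replicate 2 in both populations. Other genes also differed by replicate number, but in the next 2 examples replicate 2 read with replicate 3. Ptprc, which encodes CD45, the marker that the sort removed, read 8.59 and 8.99 on the replicate 1 arrays and 4.16 to 5.54 on those of replicates 2 and 3, against 7.38 to 9.20 on all other arrays. The mean of 18 macrophage and myeloid markers (Csf1r, Mrc1 and others), relative to fresh Kit- cells, was 0.42 and 1.57 on the replicate 1 arrays and -1.18 to -1.67 on the other 4, and from -1.07 to 0.58 elsewhere. Kit+D replicate 1 carried the highest Mrc1, at 9.46, where the fresh arrays read 3.38 to 4.54. The part of these cells in the signals of the platelet genes was not tested. With the replicate number as a block in a fit of the OP9-Dll4 arrays alone, the same 3 genes were called between Kit+D and Kit-D (Vwf, adjusted p = 0.0158, Clec1b, 0.00776, and Ppbp, 0.0229), while Pf4 reached 0.0558.

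**Figure D3:**
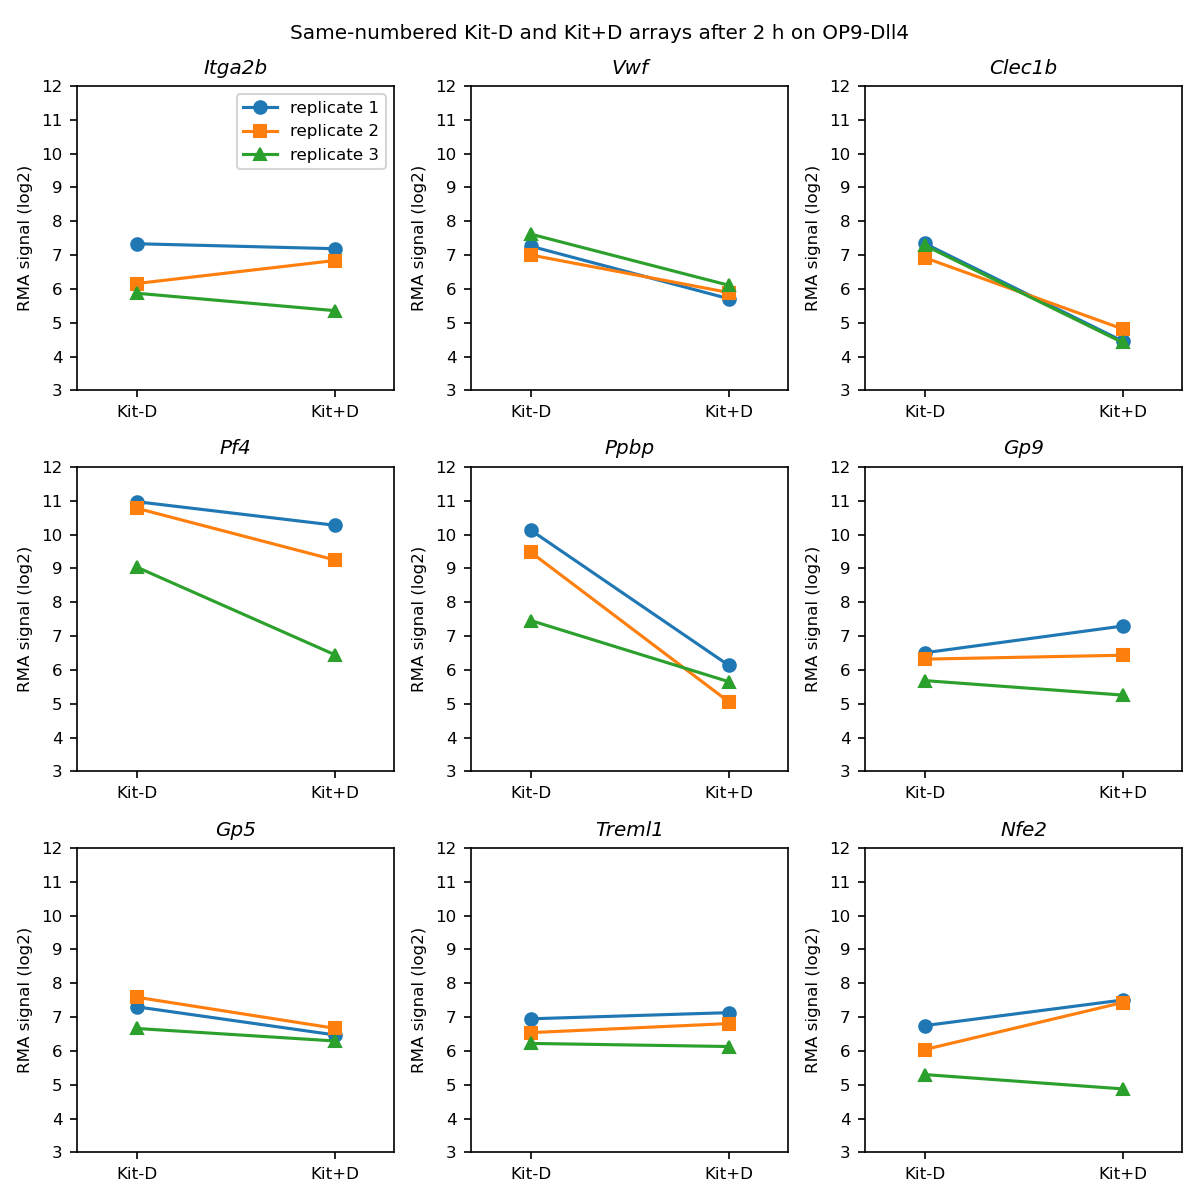
RMA signal (log2, vertical axis) of the 9 genes in Kit-D and Kit+D cells, with lines joining arrays of the same replicate number. Lines for Vwf, Clec1b, Ppbp, Pf4 and Gp5 all run downwards. Itga2b, Gp9, Gp5, Pf4, Treml1 and Nfe2 are lowest on replicate 3 in both groups.

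Most other platelet genes did not pass the test. Of 70 listed receptors, granule genes, signalling genes and megakaryocyte transcription factors, 62 were measured with a single symbol. Gp1ba, Gp1bb, Gp6, Selp, Serpine2 and Ptgs1 were among those not analysed here. Called genes numbered 0 higher and 4 lower of 62 in Kit+ versus Kit-, 1 higher and 2 lower in Kit-J versus Kit-, 8 lower and 1 higher in Kit-J versus Kit-D, and 11 lower with 1 higher in Kit+D versus Kit-D. With the replicate block on OP9-Dll4 arrays alone the last became 5 lower and 0 higher (Itga2, Itga6, Alox12, Gng11 and Vegfc), of which 4, all but Vegfc, were called without the block. With that block 1345 of the 19937 genes were called. Without it, 2.67%, 1.89%, 6.07% and 6.62% of all genes were called lower in these 4 comparisons, and 0.562%, 0.251%, 3.3% and 6.5% higher. The medians of the 62 differences were -0.06, 0.07, 0.03 and 0.01, near those of all genes. No gene of the list was called in Kit-D versus Kit-, Kit+J versus Kit+ or Kit+J versus Kit-J, beside 0.171%, 0.0201% and 0.0903% of all genes.

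Itga2, the alpha chain of a collagen receptor that endothelial cells also carry, read 8.05, 7.91 and 8.06 in Kit- and 8.57, 8.47 and 8.95 in Kit-D cells, and 4.66 to 5.62 on all other arrays. It was lower by -2.91 in Kit+ versus Kit- (adjusted p = 5e-06), by -2.75 in Kit-J versus Kit- (8.2e-05), by -3.41 in Kit-J versus Kit-D (9.23e-06) and by -3.46 in Kit+D versus Kit-D (2.25e-06), and kept each call in every alternative run. Gng11, a G-protein gamma subunit abundant in platelets and endothelium, read 8.32 to 8.62 in Kit- cells, 9.20 to 9.85 in Kit-D cells and 5.30 to 6.43 in Kit+, Kit-J and Kit+J cells. Kit+D cells lay between, at 6.66, 7.58 and 7.13, and Kit+J cells differed from them by -1.47 (adjusted p = 0.0115, but 0.234 with only those groups in the fit).

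Among the granule genes, Mmrn1 (multimerin, which binds factor V) and Vegfc were lower in Kit+ than in Kit- cells, by -1.61 (adjusted p = 0.0301) and -1.97 (0.00173). The call of Mmrn1 was lost without any single array of either group (adjusted p = 0.0588 to 0.126). In Kit-J versus Kit-D, Mmrn1, Thbs1 (thrombospondin) and Pdgfb were lower and Nbeal2, which is needed for alpha granules, was higher by 0.69 (adjusted p = 0.0357). All 4 of those calls were lost without at least 1 of the arrays compared, Kit-J replicate 1 for Mmrn1 (0.0658), Thbs1 (0.312) and Nbeal2 (0.183) and Kit-J replicate 2 for Pdgfb (0.135). Alox12, the platelet lipoxygenase, read 6.68, 5.85 and 5.87 in Kit-D cells and 4.81, 4.58 and 4.12 in Kit+D cells (-1.63, adjusted p = 0.00755).

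Of 13 measured megakaryocyte transcription factors, 0 were called in Kit+ versus Kit- and 1 in each of the other 3 main comparisons. The shares of all genes called were 3.23% in Kit+ versus Kit-, 2.14% in Kit-J versus Kit-, 9.37% in Kit-J versus Kit-D and 13.1% in Kit+D versus Kit-D. Fli1, an ETS factor of both endothelium and megakaryocytes, differed by -2.16 between Kit-J and Kit-D cells (adjusted p = 0.0151, but 0.239 without Kit-J replicate 1 and 0.0512 without Kit-D replicate 3) and by -2.01 between Kit+D and Kit-D cells (0.0079, but 0.0501 with that block), lower in Kit-J and in Kit+D. Mafg, the small Maf partner of Nfe2, was higher in Kit-J than in Kit- cells by 0.76 (adjusted p = 0.0378), a call that was lost without any 1 of the Kit- or Kit+ arrays, without Kit-J replicate 1 or Kit-D replicate 1 (0.0546 to 0.327), and under housekeeping scaling (0.228). Gata1, which drives megakaryocyte and red cell genes, read 4.96, 5.48 and 5.58 in Kit- and 6.03, 6.65 and 6.02 in Kit+ cells and was called in no comparison.

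Endothelial markers had the same group order as Vwf and Clec1b. Of 18 markers, 17 were called lower in Kit+ versus Kit-, 14 in Kit-J versus Kit-, 16 in Kit-J versus Kit-D and 18 in Kit+D versus Kit-D. The shares of all genes called lower in these comparisons were 2.67%, 1.89%, 6.07% and 6.62%. The mean of the markers relative to fresh Kit- cells was -0.05 to 0.06 over the Kit- arrays and 0.12 to 0.58 over those of Kit-D. It was -2.84 to -2.71 for Kit+, -2.21 to -1.81 for Kit-J, -3.08 to -2.65 for Kit+J and -2.75 to -1.68 for Kit+D. Cdh5, the endothelial cadherin, read 11.00 to 11.42 on the 6 Kit- and Kit-D arrays and 4.68 to 8.58 on the other 11. A mixed list of 9 measured genes held some of Weibel-Palade bodies, the endothelial granules that store Vwf (Angpt2, Edn1, Cd63 and Rab27a), the Vwf protease Adamts13 and other endothelial genes (Esam, Procr, Erg and Gata3). Of these, 2, 2, 3 and 5 were called lower in the 4 comparisons, and with the block on OP9-Dll4 arrays the 5 became 3 and the endothelial markers stayed at 18 of 18. Edn1, a granule cargo, and Esam, a junction protein and also 1 of the 18 markers, were among them in all 4. In Kit-J versus Kit- both calls were lost with only those groups in the fit (adjusted p = 0.0733 for Edn1 and 0.0522 for Esam). That of Edn1 was also lost without Kit- replicate 1 (0.0575). Without Kit-J replicate 1, which left 1 Kit-J array, the differences shrank from -1.96 and -1.67 to -1.50 and -1.27. Of the other granule genes, Rab27a read 7.26 to 7.87 in Kit- and 8.01 to 8.37 in Kit+ cells, higher but not called. Cd63 read 10.36 to 10.56 in Kit- and 9.97 to 10.69 in Kit+ cells. The part of endothelial cells in the fall of Vwf, Clec1b and Ppbp was not tested.

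Stromal markers and 2 globins moved with some of the same arrays. The embryonic globins Hba-x and Hbb-y were the only 2 of 11 measured erythroid genes called lower in Kit+ versus Kit- and in Kit-J versus Kit-. In these comparisons 2.67% and 1.89% of all genes were called lower. The median difference of the 11 genes was 0.023 and 0.085, where that of all genes was 0.065 and 0.085. Hba-x was not low in Kit+D cells, at 9.21 to 10.42, beside 8.89 to 10.20 in Kit- cells. The mean of 16 stromal markers was -1.29 to -1.15 in Kit+ and -1.02 to -0.60 in Kit-J cells, relative to Kit-, and 0.90 on Kit-D replicate 3. The part of red cells and stromal cells was not tested either.

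**Figure D4:**
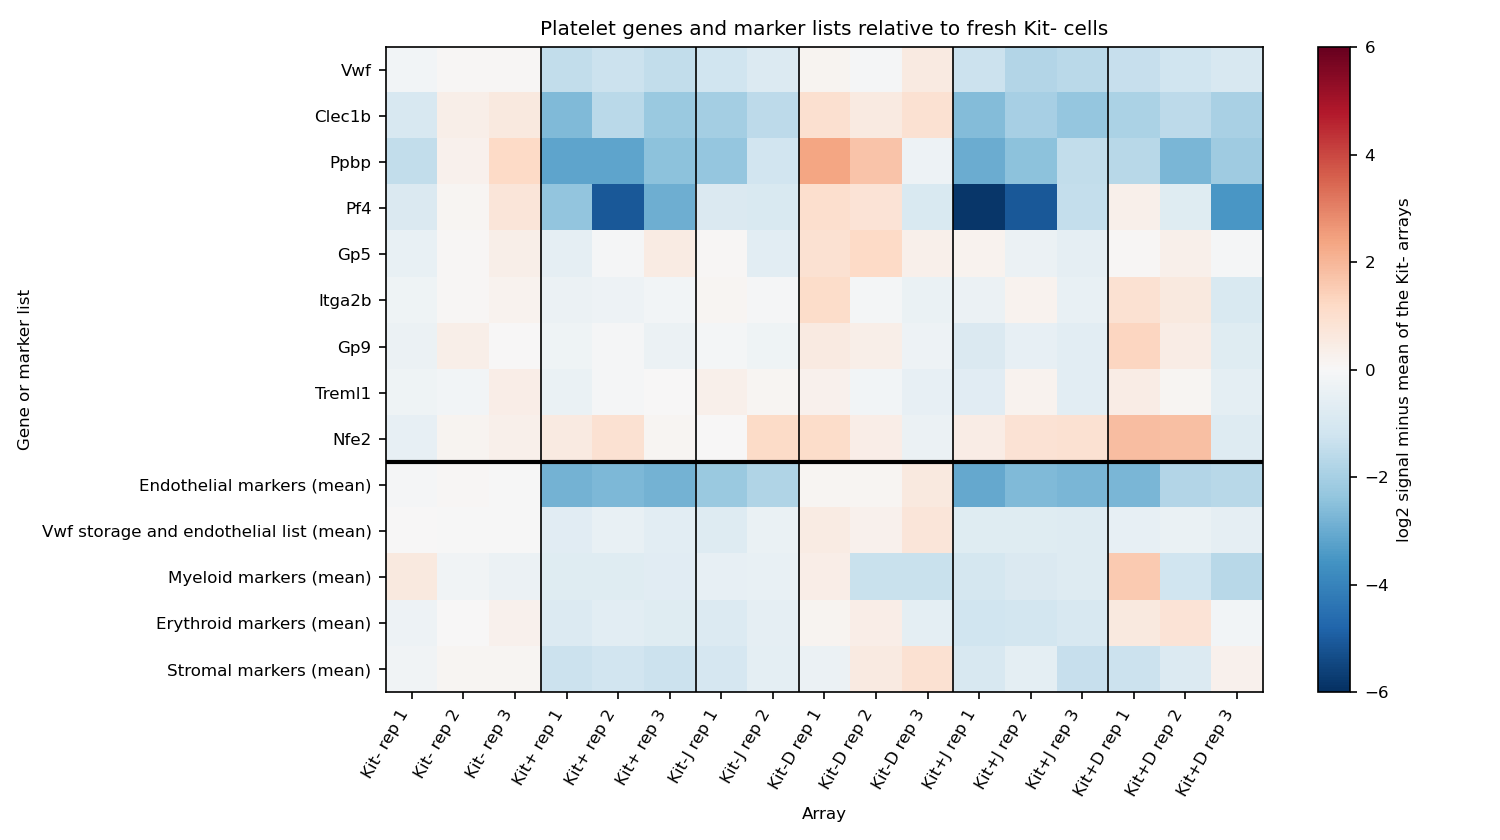
Signal of the 9 genes and mean signal of 5 marker lists (rows) on each of 17 arrays (columns), as the log2 difference from the mean of the 3 Kit- arrays (colour). Vwf, Clec1b and Ppbp share the blue of the endothelial markers, and the myeloid markers are reddest on Kit+D replicate 1.

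As a description across the 17 arrays, which share groups and culture, Vwf and Clec1b had a Pearson r of 0.94 with each other, Clec1b and Ppbp 0.894 and Ppbp and Pf4 0.75. Among the receptor genes r was 0.807 between Itga2b and Gp9 and 0.79 between Itga2b and Treml1. For Vwf, r was 0.116 with Itga2b, 0.0348 with Treml1 and -0.359 with Nfe2. Other pairs across these sets were closer, with 0.669 between Pf4 and Gp9, 0.609 between Ppbp and Gp5 and 0.597 between Clec1b and Gp5, so the sets were not separate. The mean of the endothelial markers had r = 0.972 with Vwf, 0.941 with Clec1b, 0.824 with Ppbp and 0.667 with Pf4, and 0.136 with Itga2b. This was not particular to that list, as the mean of the stromal markers had 0.837, 0.792, 0.643, 0.359 and -0.165 with the same genes. The mean of the germ cell markers ran the other way, with r of -0.647, -0.736, -0.773, -0.715 and -0.603.

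The genes whose pattern was most like each member with a range over 2 were named by r over the same 17 arrays. For Vwf they were Cgnl1 (0.979), Tek (0.979) and Prex2 (0.975), of which Tek is the angiopoietin receptor. For Clec1b they were Gpr182 (0.962), Tspan18 (0.962) and Esam (0.958). Ppbp was most like Tnnt2 (0.91), Gria2 (0.906) and Alox12 (0.904), and Pf4 most like Pon2 (0.893), Eid1 (0.866) and Ccnd2 (0.85). Gp9 was nearest to P2rx1 (0.831), the ATP-gated channel of platelets, then Mtln (0.808) and Itga2b (0.807). Nfe2 was nearest to Gfi1b (0.867), a transcriptional repressor active in the megakaryocyte and red cell lineages, then Prkar2b (0.862) and Ptgr1 (0.853).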

How the data were processed

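RNA from sorted cells was amplified from a few nanograms and hybridised to Affymetrix Mouse Gene 1.0 ST arrays, 1 per sample. The deposited values were log2 signals that the authors made with RMA (background correction, quantile normalisation and median-polish summary), of a version not given in the sources used here. They carried neither raw intensities nor detection calls, so the number of arrays limits the precision. No pair of arrays shared more than 1.1% of values, so none was a copy.

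Of 34760 probe sets, 21640 had 1 gene symbol in the platform annotation, 1321 several and 11799 none, and the last 2 kinds were left out. Entrez numbers matched 21553 to RefSeq and changed 0 symbols. Where a gene had several probe sets (954 of 19937 genes) the one with the highest mean was kept. Group means of all 17 arrays were fitted with limma 3.58.1 in R 4.3.3 (lmFit, eBayes, Benjamini-Hochberg over all genes, threshold 0.05), after a check on simulated data. Tables were read with the data.table package (version 1.17.8) and figures drawn with matplotlib 3.10.9 in Python 3.11.15. Alternatives changed the samples fitted, the prior, the filter, the scaling, array weights, probe-set choice, a fold limit and a replicate block, or left out each array.

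On OP9-Dll4, Kit-D and Kit+D arrays of one replicate number shared their deviations (correlations of 0.179 to 0.462 over genes, at most 0.134 between different numbers), and were taken as paired from the data, as no label says so. No other pair of groups did so. The 9 genes and all lists were chosen with earlier results of these data known. Beside the 9 genes, the text could name up to 4 genes of each list by smallest adjusted p, any called gene of a list with at most 5, and the 3 genes most correlated with each member of range over 2, among genes with an SD of at least 0.5. Cdh5, Ptprc, Mrc1, Csf1r, Kit, Gata1, Thbs1, Pdgfb, Nbeal2, Mafg and Alox12 were named after their values were seen where that rule did not reach them.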

Additional observations from a re-analysis of the deposited data

How the results depend on the processing

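No call of the 9 genes, of the other platelet genes or of the mixed list with Weibel-Palade body genes changed its direction in any alternative run. Calls of genes outside these lists, such as the globins, were not followed gene by gene in those runs. The count of the 9 genes called moved by over 1.5 times, or to or from 0, in 3 comparisons. In Kit-J versus Kit- it was 2, but 0 with only the groups compared in the fit, 1 with array weights (Vwf), and 0 to 2 with 1 array left out (0 without Kit- replicate 2, Kit- replicate 3 or Kit-J replicate 1). In Kit+J versus Kit+D it was 0, and 0 to 2 with 1 array left out (Pf4 and Gp9 without Kit+D replicate 3). In the ligand by Kit comparison it was 0, but 1 (Clec1b) with only the groups compared, with an intensity trend and robust prior, without dim genes, with the mean of probe sets or with the replicate block, and 0 to 1 with 1 array left out. A group left with 1 array was assumed to vary like the others. With 1 array left out the count ran from 2 to 4 in Kit+ versus Kit-, 2 to 3 in Kit-J versus Kit-D and 3 to 4 in Kit+D versus Kit-D. The replicate block over all arrays called 2 of 9 in Kit-J versus Kit-D (Ppbp, adjusted p = 0.0535), as did the fit of only those groups (Ppbp, 0.0797) and array weights (Ppbp, 0.106), and the block changed no other count than this and that of the ligand by Kit comparison. Kit+ versus Kit- called 4 of 9 (Pf4 added) with only those groups, array weights or housekeeping scaling. Calls over all genes moved more: 644 became 417 to 909 with 1 array left out of Kit+ versus Kit- and 1728 with array weights, 426 became 105 to 942 in Kit-J versus Kit-, 1869 became 504 to 2728 in Kit-J versus Kit-D, and 2615 became 1573 to 3077 in Kit+D versus Kit-D (1345 with the block on OP9-Dll4 arrays alone). Housekeeping scaling (6 of 8 listed genes measured) shifted the median of all genes by -0.23 in Kit+ versus Kit-, 0.16 in Kit+D versus Kit+, -0.15 in Kit+J versus Kit+D and -0.17 in Kit+J versus Kit-J. The filter on dim genes kept all 9. Leaving out 3 OP9-Dll4 arrays together (Kit-D replicate 3, replicates 1 and 3 of Kit+D), and the block on OP9-Dll4 arrays alone, were chosen after seeing the data and changed no count of the 9. The cause of these movements was not tested.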
